A study of Mus musculus with 60 samples.

Results

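This account follows 10 transcriptional regulators of the luminal lineage of the mouse mammary gland: Foxa1, Cited1, Gata3, Lmo4, Ehf, Elf3, Elf5, Stat5a, Stat5b and Id2. Every probe set (a group of short probes that reads a single transcript) annotated with exactly 1 of these symbols was taken. The rule found 18 probe sets among 36899 on the arrays, 11 on array type A, 4 on B and 3 on C. All 10 genes, of 15964 with such a probe set, were found, and each had at least 1 probe set bright enough to be tested (15 of the 18).

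Gene expression was measured in 20 ovariectomized mice, which lack ovarian hormones, after 4 daily injections into the abdominal cavity, as the series' design text and the labels give it. Intact glands came from 4 animals given 100 µl of sesame oil as vehicle (V), 4 given 2 µg of 17-beta-estrogen (E), 4 given 1 mg of progesterone (P) and 5 given both hormones (E+P). The last group, E+P CFP, held mammary fat pads that lack epithelium, from 3 animals that received both hormones. Total RNA of each animal was read on 3 Affymetrix array types, 60 arrays in all. The sources used here give neither strain, age nor genotype, and do not say how the fat pads were cleared. The description field of the V samples names progesterone, while their titles, their treatment text and the design give sesame oil, and the titles were followed. The labels call the samples biologic replicates, and the design's total of 20 is reached only if gland and fat pad came from different animals.

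The mammary duct is a bilayer of luminal cells around the lumen and basal cells outside. Some luminal cells carry the receptors for estrogen and progesterone and sense these hormones, and they pass the signal on to neighbours by secreted factors. Other luminal cells are progenitors of the alveoli, which make milk under prolactin acting through Jak2 and Stat5. The 10 regulators are known from the establishment, upkeep or branching of these fates.

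Most of the calls fell between gland and fat pad. Signal of 7 of the 10 genes was higher in E+P glands than in E+P fat pads at an adjusted p below 0.05 (limma, with Benjamini-Hochberg adjustment over all tested probe sets), and none was lower. In that comparison 10.4% of all 12233 tested genes were called in either direction. Foxa1, Elf5, Gata3, Elf3, Ehf, Cited1 and Id2 were the genes called, while Lmo4, Stat5a and Stat5b were not. Differences between hormone treatments of intact glands were fewer. Against V, E+P glands had more Ehf and Lmo4, 2 of 10 genes where 0.662% of all genes were called. Lmo4 alone was called against E (0.229% of all genes), and Elf3 alone against P (0.523%) and in the interaction of the hormones (0.0736%). Neither E alone nor P alone changed any of the 10 at the threshold in limma. Among all genes, 0.213% were called for E and 0% for P. At an unadjusted p below 0.05, 2 of the 10 genes (Elf3 and Id2) differed for E and 1 (Elf3) for P, where 12.1% and 8.07% of all tested probe sets did, so these counts are near the background.

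The samples are bulk tissue, so fewer cells of a type and less RNA per cell cannot be told apart. All 13 tested luminal epithelium markers were lower in the fat pads, and 6 of them lay at the measurement floor (the 25th percentile of signal of the array type) in every fat pad. Their summed level, as the mean of each marker's log2 signal around its own mean over animals, was -3.32 to -3.18 in the fat pads and 0.65 to 1.16 in E+P glands. In the other glands it was 0.32 to 0.65 for V, 0.21 to 0.87 for E and 0.067 to 0.31 for P. The same measure for skeletal muscle markers was 2.04 to 2.77 in the fat pads and -1.04 to 0.46 in E+P glands, and for adipocyte markers it was 0.33 to 0.50 against -0.54 to -0.0093. In the other glands skeletal muscle markers ranged from -1.07 to 0.78 for V, from -1.39 to 1.92 for E, where E 1 was the highest, and from -1.18 to -0.099 for P. Lymphocyte markers ranged from -1.50 to 1.36 in V glands, where V 4 was the highest, and from 0.34 to 1.73 for E. They ranged from -1.45 to 0.96 for P, from -1.38 to 0.78 for E+P and from 0.13 to 0.79 in the fat pads. RNA integrity was read from Gapdh, as its 3' over its 5' control signal. This ratio was 1.97 to 3.69 for V, 1.24 to 1.72 for E, 1.35 to 2.49 for P, 1.49 to 2.76 for E+P and 1.26 to 4.39 for the fat pads. The part of muscle, fat, lymphocytes and RNA integrity in the results below was not tested. Without V 4, E 1 and E+P CFP 1, which stood apart in lymphocyte markers, muscle markers or the Gapdh ratio, 7 of the 10 genes were still called between gland and fat pad, and Ehf was the only one of the 10 called for E+P against V.

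**Figure D1:**
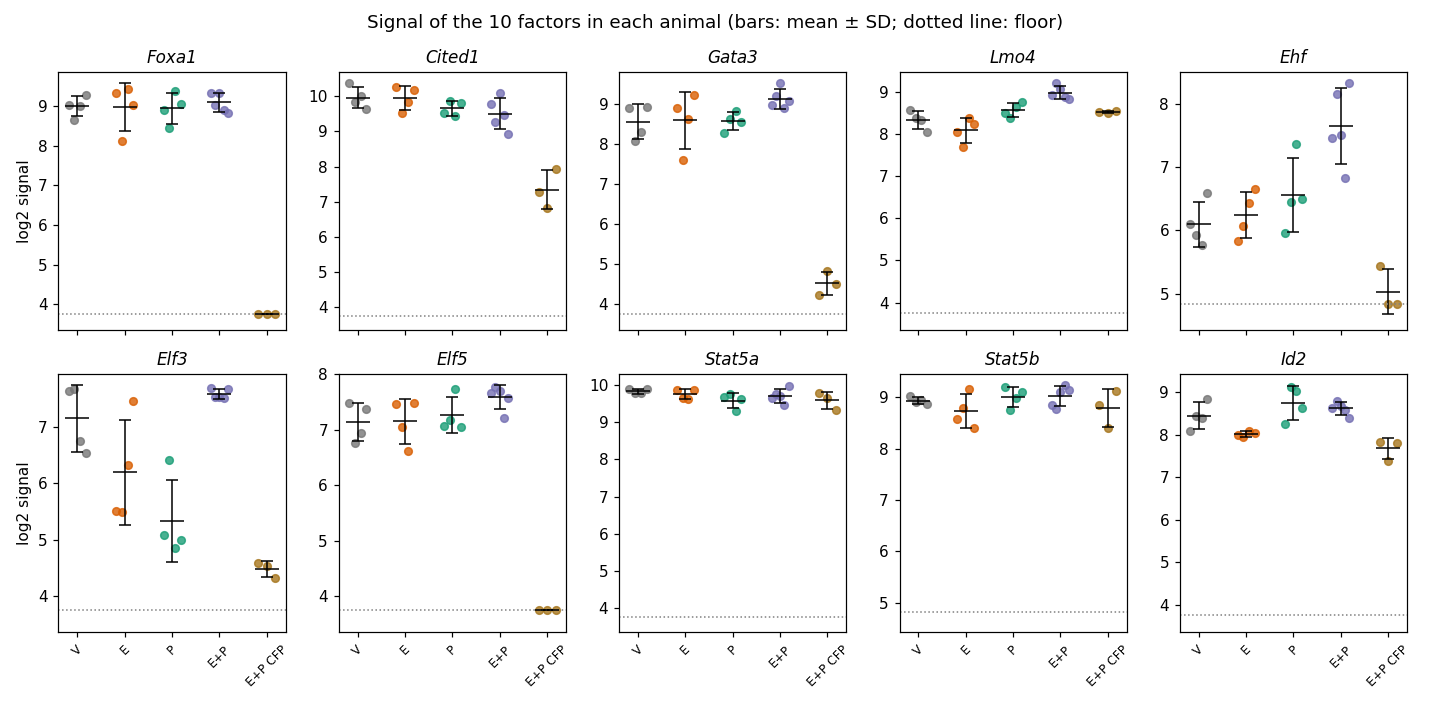
Log2 signal (y axis) of the probe set that stands for each gene in every animal, by group (x axis), with mean ± SD bars and the floor as a dotted line. All 3 fat pads sit at the floor for Foxa1 and Elf5, Stat5a and Stat5b overlap between E+P glands and fat pads, and the E+P glands lie above all other samples for Lmo4.

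Foxa1 is a pioneer factor that binds closed chromatin and opens sites for the estrogen receptor. Its scaled signal (probe set 92697_at) was 523, 405, 517 and 619 in the V glands, 641, 277, 691 and 525 with E and 481, 348, 669 and 534 with P. With both hormones it was 647, 527, 647, 481 and 458, and the fat pads read 2, 2.5 and 1.2. All 4 sets of glands overlapped, and all 3 fat pads lay below the floor of 13.5. With the fat pads set to the floor, Foxa1 was an estimated 40.5-fold higher in E+P glands than in fat pads. This is a log2 difference of 5.34 ± 0.24 (SE, 95% confidence interval 4.83 to 5.84, limma adjusted p = 4.25e-12). Under the other processing settings run it was 3.90 to 7.09. Between E+P and V glands the log2 difference was 0.10 ± 0.22 (adjusted p = 0.931).

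The Foxa1 promoter is shown because all 3 fat pads lay below the floor for this gene and because it alone held a forkhead motif, the kind of site its own protein family binds. The window runs from 250 bases before to 50 after the RefSeq start (GRCm38.p6, chr12:57546062-57546361, minus strand), and the capitals mark the match to TGTTTAC, here on the opposite strand from base 110 of the window.
Foxa1: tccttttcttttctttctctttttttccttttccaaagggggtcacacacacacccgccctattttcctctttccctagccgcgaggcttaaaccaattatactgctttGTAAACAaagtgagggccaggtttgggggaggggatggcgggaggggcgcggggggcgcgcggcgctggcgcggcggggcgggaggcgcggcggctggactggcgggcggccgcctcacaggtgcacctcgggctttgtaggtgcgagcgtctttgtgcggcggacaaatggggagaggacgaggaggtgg
Over all 32851 promoter windows in the RefSeq table, 3.65% held this motif on either strand. A match describes the letters and is not evidence of binding.

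Cited1 is a coactivator without a DNA-binding domain of its own that works with the estrogen receptor. Its array A probe set (160705_at) read 1320.1, 918, 1023 and 799.8 for V, 1235, 743, 921 and 1167 for E and 738, 931, 692 and 904 for P. For E+P it read 873, 622, 1090.4, 707 and 491, and the fat pads read 155, 114 and 244. Every fat pad was below every gland, though still well above the floor, unlike Foxa1. The gland to fat pad difference was 2.16 ± 0.25 on the log2 scale (limma adjusted p = 5.35e-06). A second Cited1 probe set, on array C, did not show it: the fat pads read 468, 284 and 294 and the E+P glands 266, 342, 258, 309 and 204, a difference of -0.32 ± 0.22 (adjusted p = 0.473). Over the 20 animals the log2 signals of the pair correlated at only 0.098. The suffix of the second set (169029_i_at) is Affymetrix's mark for sets with fewer probes than usual, and no cause of the disagreement was tested. Within the 17 intact glands the correlation was 0.31. For E+P against V the log2 difference of the array A set was -0.45 ± 0.23, which did not pass (adjusted p = 0.508). The array C set gave -0.37 ± 0.21 (adjusted p = 0.567). For P against V the sets differed in sign, -0.30 ± 0.24 on A and 0.22 ± 0.22 on C.

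Gata3, a zinc-finger factor needed to form luminal cells and keep them differentiated, had 3 tested probe sets: 100924_at on A, 111479_at on B and 130316_f_at on C. On array A the V glands read 478, 266, 314 and 486, the E glands 472, 193, 394 and 597 and the P glands 309, 391, 449.5 and 373. The E+P glands read 495, 582, 726, 471 and 538, and the fat pads 18.8, 28.1 and 22.7. All intact glands stood above all fat pads. On array A the E+P glands lay above all P glands and overlapped the V and E glands. On B and C they overlapped the P glands, and on C they lay above all E glands. The difference between E+P gland and fat pad was 4.60 ± 0.28 on array A (limma adjusted p = 2.27e-10), 2.76 ± 0.27 on B (adjusted p = 2.14e-07) and 3.18 ± 0.28 on C (adjusted p = 2.10e-08). On B the fat pads read 75.7, 39.1 and 37.6 against 254 to 407 in E+P glands, and on C 79.1, 101 and 249 against 983 to 1325. Here the probe sets moved together, with correlations over 20 animals of 0.94 for A and B, 0.93 for A and C, and 0.89 for B and C. The fat pads widen this range. Within the 17 intact glands they were 0.74, 0.58 and 0.81. E+P against V gave 0.58 ± 0.25 on A (adjusted p = 0.416), 0.49 ± 0.25 on B (adjusted p = 0.507) and 0.59 ± 0.26 on C (adjusted p = 0.406), the same sign on all arrays but none past the threshold. The E+P glands overlapped the V glands on A and lay above them on B and C.

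Lmo4 is an adaptor of LIM domains that joins transcription factors through Ldb1 and cannot bind DNA itself. The V glands read 380.1, 334, 324 and 264 (probe set 98122_at), the E glands 266, 207, 332 and 301 and the P glands 361, 331, 402 and 433. With both hormones the values were 489, 589, 538, 469 and 455, while the fat pads read 366, 363 and 371. All 5 E+P glands were above all other samples, fat pads included. The fat pads lay within the range of the V glands and of the P glands, unlike those for Foxa1 or Gata3. E+P exceeded V by 0.65 ± 0.14 (1.57-fold, limma adjusted p = 0.0368) and E by 0.89 ± 0.14 (1.86-fold, adjusted p = 0.00978). It exceeded P by 0.41 ± 0.14 (adjusted p = 0.214) and the fat pads by 0.46 ± 0.15 (95% confidence interval 0.15 to 0.77, adjusted p = 0.0618), neither of which passed. The call against E held without each single animal in turn. The call against V was lost without V 2, V 3, V 4, E 1, E+P 1, E+P 2, E+P 3 or E+P 5, with differences of 0.55 to 0.69 and adjusted p of 0.0507 to 0.129, while the call against the fat pads was gained without V 4 (adjusted p = 0.0491) or E 2 (adjusted p = 0.0354).

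Ehf is an Ets factor restricted to epithelia. Its tested probe set, on array B (114753_at), read 68.7, 60.8, 54.6 and 96.2 for V, 56.9, 67.2, 86.2 and 100.2 for E and 62.1, 87.3, 165 and 89.9 for P. The E+P glands read 176, 284, 181, 114 and 319, and the fat pads 43.5, 15.4 and 12.4. Every E+P gland was above every V and E gland, but P 3 lay among the E+P glands. E+P exceeded V by 1.55 ± 0.32 (2.94-fold, limma adjusted p = 0.0309). It exceeded E by 1.41 ± 0.32 (adjusted p = 0.0957) and P by 1.09 ± 0.32 (adjusted p = 0.153), which did not pass. The call against V was lost without V 1, V 2, V 3, E+P 2, E+P 3 or E+P 5, at 1.39 to 1.59 with adjusted p of 0.0509 to 0.130, and the difference from E passed without E+P 4 (1.61, adjusted p = 0.0368). Against the fat pads, 2 of which were at the floor of 28.5, the difference was 2.62 ± 0.35 (limma adjusted p = 2.36e-05), an estimate limited by the floor.

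Elf3, another Ets factor of epithelia, had the widest spread between hormone groups. Its array A probe set (99059_at) read 200.1, 205, 108 and 93.7 in V glands, 45.5, 45.1, 80.3 and 177 in E glands and 33.8, 85.7, 29.0 and 31.8 in P glands. Values of 207, 185, 187, 183 and 207 came from the E+P glands, and 23.9, 23.2 and 19.9 from the fat pads. The 5 E+P glands were tightly grouped (log2 SD 0.088), the V glands reached up to them, and the P glands were all lower than any V gland. The difference of E+P over P was 2.26 ± 0.36 (4.78-fold, limma adjusted p = 0.00845), and it was larger, 2.62, without P 2, the brightest P gland. E+P differed from V by 0.44 ± 0.36 (adjusted p = 0.746). For P against V the difference was -1.82 ± 0.38 and for E against V -0.96 ± 0.38, and neither passed (adjusted p = 0.147 and 0.319).

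The interaction asks whether E changed Elf3 by another amount in the presence of P than in its absence. It was 3.21 ± 0.53 on the log2 scale (limma adjusted p = 0.0139), that is, E+P lay above what the separate differences of E and P from V add up to. Without V 2 it was 3.04 and just missed the threshold (adjusted p = 0.0501). Fat pads were lower than E+P glands by 3.12 ± 0.40 (adjusted p = 1.84e-05). None of this appeared on the second Elf3 probe set, on array C (169545_r_at), which read 382 to 884 over all samples with overlapping groups. There the interaction was -0.20 ± 0.28 (adjusted p = 0.843), E+P against P 0.11 ± 0.19 (adjusted p = 0.887) and gland against fat pad 0.054 ± 0.21 (adjusted p = 0.928). The pair correlated at -0.089 over 20 animals, so the Elf3 results rest on the array A probe set. The second set carries a suffix by which Affymetrix marked probe sets that did not meet all its selection rules.

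The Elf3 promoter is shown as that of the gene with the hormone interaction (GRCm38.p6, chr1:135258423-135258722, minus strand). It held no match to any of the motifs searched, which says only that these letters are not in this window.
Elf3: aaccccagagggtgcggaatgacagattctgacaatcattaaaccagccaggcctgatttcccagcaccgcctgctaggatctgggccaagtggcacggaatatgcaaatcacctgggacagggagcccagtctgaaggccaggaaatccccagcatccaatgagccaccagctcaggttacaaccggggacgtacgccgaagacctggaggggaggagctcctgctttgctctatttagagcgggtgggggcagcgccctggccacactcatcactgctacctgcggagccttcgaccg

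Elf5 is the Ets factor that drives alveolar cell fate. Its signal (probe set 103283_at) was 179, 109, 124 and 167 for V, 176, 132, 98.3 and 179.9 for E and 135, 146, 214 and 133 for P. For E+P it was 203, 218, 208, 149 and 192, and for the fat pads 4.1, 11.1 and 2.5. All fat pads were below the floor and all 17 glands far above it. With the fat pads set to the floor, the E+P glands were an estimated 14.2-fold higher. This is a log2 difference of 3.83 ± 0.22 (95% confidence interval 3.38 to 4.29, limma adjusted p = 9.89e-11), and 2.39 to 5.08 under the other processing settings run. E+P against V gave 0.44 ± 0.20 (95% confidence interval 0.022 to 0.86, adjusted p = 0.435), with overlapping groups.

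Stat5a and Stat5b, near-identical factors that prolactin activates by phosphorylation, a step that arrays do not read, passed the threshold in none of the 7 comparisons. Stat5a (100422_i_at) read 959, 883, 879 and 948 for V and 801, 869, 829, 709.7 and 1014 for E+P. The fat pads read 881, 800.2 and 645, within the range of the glands, of which the P glands (628 to 861) were all below the V glands (difference -0.26 ± 0.13, adjusted p = 0.632). The gland to fat pad difference was 0.13 ± 0.13 (95% confidence interval -0.15 to 0.40, limma adjusted p = 0.666) and 0.052 ± 0.16 on the other Stat5a probe set, 100423_f_at (adjusted p = 0.904), with a correlation of 0.73 between the 2 sets. For Stat5b (113125_at) the fat pads read 459.9, 337 and 556 and the E+P glands 461, 438, 549.5, 600.3 and 565. That difference was 0.23 ± 0.17 (95% confidence interval -0.13 to 0.59, adjusted p = 0.512). The upper bounds of these intervals, 0.40 and 0.59, are far below the Foxa1 difference of 5.34 (95% confidence interval 4.83 to 5.84). The Foxa1 estimate is itself limited by the floor in the fat pads. Probes may not separate the paralogs, since their sequences are so alike. The Stat5a set 100422_i_at carries the same suffix as the second Cited1 set, the mark for fewer probes than usual. The other Stat5a set, 100423_f_at, and the Gata3 set on array C, 130316_f_at, carry a suffix as well. What these suffixes mean for the readings was not tested.

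Both genes lie on chromosome 11 with 0 coding genes between them in RefSeq, as do Ehf and Elf5 on chromosome 2. A pair of Stat5 promoter windows is shown because these genes kept their signal in the fat pads, in contrast to Foxa1. They are the windows with the longest run in common, 16 bases, among the 4 pairs compared (GRCm38.p6, chr11:100860234-100860533, plus strand, for Stat5a and chr11:100822521-100822820, minus strand, for Stat5b). Capitals mark the Ets core motif AGGAAG, here on the opposite strand, at base 241 and base 250 of the windows.
Stat5a: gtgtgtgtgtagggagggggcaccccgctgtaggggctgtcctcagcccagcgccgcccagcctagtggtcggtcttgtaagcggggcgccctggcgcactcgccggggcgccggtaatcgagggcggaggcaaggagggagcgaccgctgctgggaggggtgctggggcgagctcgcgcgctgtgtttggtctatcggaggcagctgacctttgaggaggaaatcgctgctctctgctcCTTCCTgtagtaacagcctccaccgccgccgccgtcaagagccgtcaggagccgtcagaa
Stat5b: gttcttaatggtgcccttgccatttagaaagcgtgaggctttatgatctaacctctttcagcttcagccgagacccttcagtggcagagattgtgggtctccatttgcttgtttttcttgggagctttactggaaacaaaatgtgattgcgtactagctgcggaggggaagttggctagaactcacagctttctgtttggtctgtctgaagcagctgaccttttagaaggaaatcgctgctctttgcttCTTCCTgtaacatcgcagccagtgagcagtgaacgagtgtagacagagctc
AGGAAG was found in 35.4% of all promoter windows and in 7 of the 16 windows of the 10 genes, those of Cited1, Lmo4, Stat5a and Stat5b. Windows were at hand for 9 of the genes. Of the other motifs searched on both strands, the GATA motif AGATAA (11.2% of all windows), the Stat motif TTCNNNGAA (8.30%) and the steroid receptor motif AGAACA (19.0%) were in 0 of the 16. The Ets and forkhead matches lay in windows of different genes, so no match overlapped one of another motif. Nothing about binding follows from these counts.

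Id2 is a helix-loop-helix protein that holds partners away from DNA and is needed for alveoli in pregnancy. It read (probe set 93013_at) 269.6, 348, 338 and 460.0 for V, 255, 246, 274 and 262 for E and 303, 554, 523 and 393 for P. In E+P glands it read 396, 446, 411, 385 and 337, and in fat pads 228, 167 and 225. The fat pads were below all glands, and the E glands were tightly grouped below all E+P and P glands. E+P exceeded the fat pads by 0.94 ± 0.18 (1.92-fold, limma adjusted p = 0.00214), a smaller difference than for the other 6 genes called. E+P against E gave 0.60 ± 0.17 (adjusted p = 0.224) and E against V -0.42 ± 0.18 (adjusted p = 0.341), and neither passed.

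**Figure D2:**
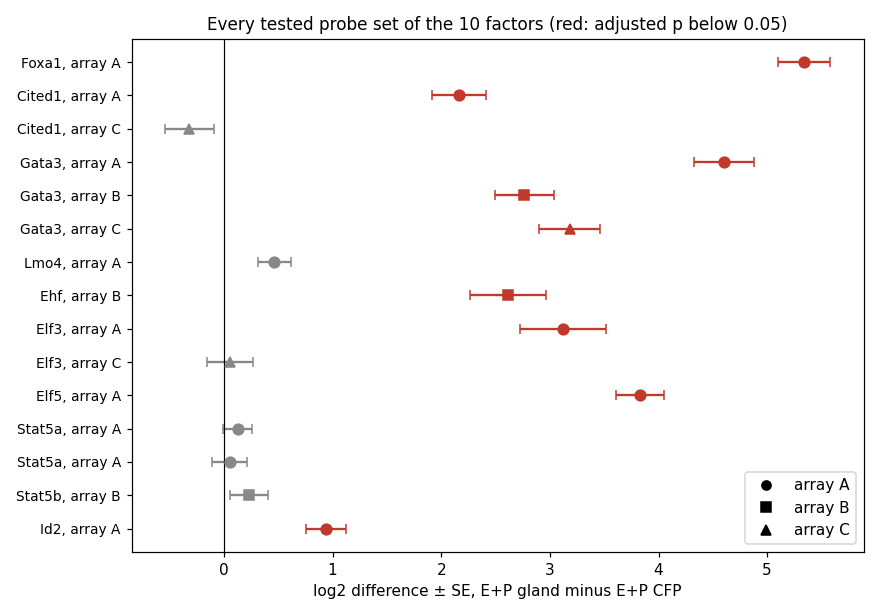
Log2 difference ± SE (x axis) between E+P glands and E+P fat pads for each of the 15 tested probe sets (y axis), with the array type as the marker shape and red for an adjusted p below 0.05. The 3 Gata3 probe sets lie at 2.76 to 4.60, whereas the array C probe sets of Cited1 and Elf3 lie at -0.32 and 0.054, apart from their array A counterparts.

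Ordered by mean log2 signal, the fat pads were the lowest group for 7 of the 10 genes and the E+P glands the highest for 7. Of the 40 steps between neighbouring groups in these orders, 12 were wider than the larger SD of the pair, and of the 27 steps between intact groups only 5 were. Those 5 were E+P over P for Lmo4, Ehf and Elf5, V over E for Elf3 and V over E for Id2. The other counted steps between intact groups were no wider than the larger SD of their pair. Intact groups with the fat pads between them in an order were not counted. P over V for Lmo4 was such a step, and its difference of 0.23 exceeded the larger SD, 0.22.

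**Figure D3:**
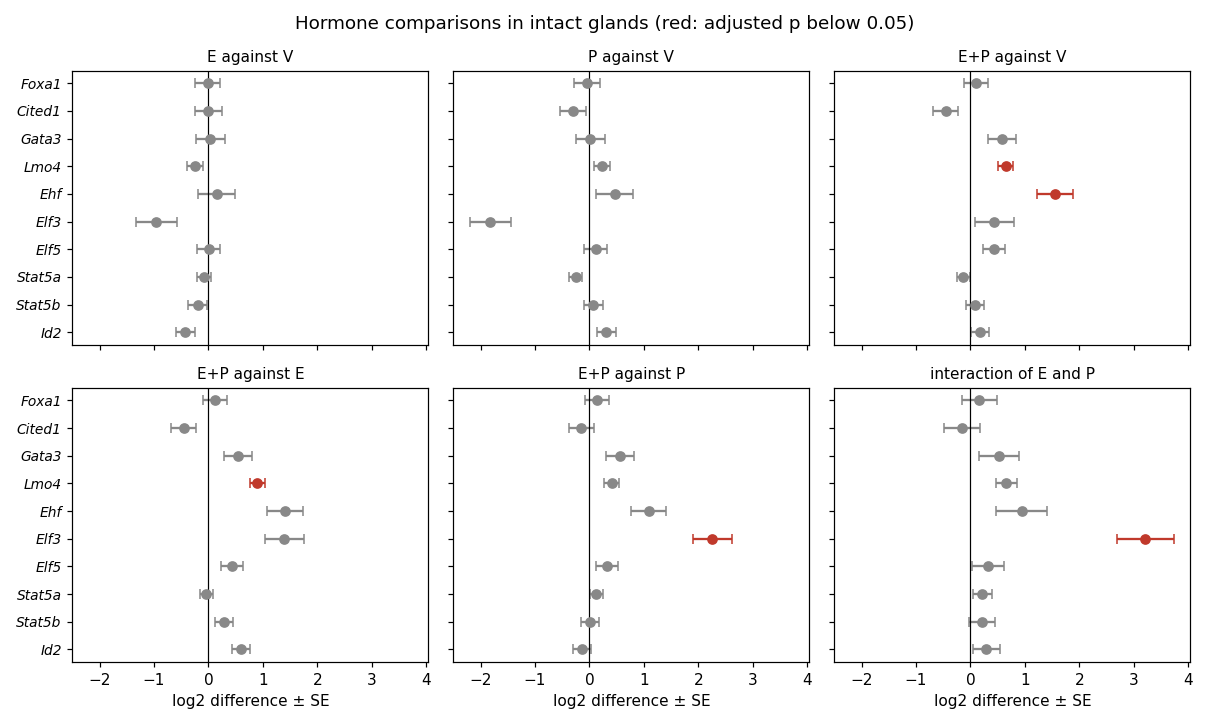
Log2 difference ± SE (x axis) of each of the 10 genes (y axis) in the 6 comparisons among intact glands, with red for an adjusted p below 0.05. Ehf and Lmo4 are red for E+P against V, Lmo4 against E, and Elf3 against P and in the interaction.

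Across E+P and V glands the median log2 difference of the 10 genes was 0.31, against 0.020 for all tested genes, and 8 of the 10 were above 0. It was 0.49 against 0.018 for E+P over E, 0.23 against 0.012 for E+P over P, -0.052 against 0.00021 for E over V and 0.045 against 0.0043 for P over V. The 13 tested luminal markers had a median of 0.42 for E+P over V, with 12 of 13 above 0. Their medians were 0.33 for E+P over E, 0.79 for E+P over P, 0.16 for E over V and -0.28 for P over V. Of these 5 comparisons 3 share the E+P glands and 3 the V glands, so their values are not independent. The keratins Krt8, Krt18 and Krt19, structural proteins of luminal cells, also differed between these glands: their mean log2 signal was higher by 0.68 in E+P than in V, by 0.77 in E than in V and by 0.76 in E+P than in P, and by -0.091 in E+P against E. Only Krt19 with E passed (1.19, limma adjusted p = 0.0185). When every gene was read relative to these keratins, the median of all tested probe sets itself shifted by -0.67 for E+P against V. On that scale Lmo4 was at -0.035 (adjusted p = 0.890) for E+P against V, while Ehf was at 0.87 (adjusted p = 0.0498). Cited1 (-1.14, adjusted p = 0.00625) and Stat5a (-0.81, adjusted p = 0.00643) were called lower there. On that scale 41.2% of all genes were called, nearly all of them lower. For E+P against P the shift of the median was -0.75 and Elf3 was at 1.5 (adjusted p = 0.00326). Its interaction was 3.23 (adjusted p = 0.00353).

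The other genes of these cells and pathways are given from lists by role. Of 13 tested luminal markers, 13 were higher in E+P glands than in fat pads, among them Krt19 (6.70), Krt18 (6.64), Krt8 (6.57) and Krt7 (5.34, all log2 differences). With Krt8, Krt19 and Krt7 at the floor in all fat pads, their differences are estimates limited by the floor. The median of the luminal list was 3.94, against 2.39 for the 10 regulators and 0.027 for all tested genes. Of 5 tested genes of hormone-sensing cells only Prom1, a membrane glycoprotein, rose (3.05), and the estrogen receptor gene Esr1 had a difference of 0.51 (limma adjusted p = 0.152). Pgr was too dim to be tested, and Prlr had no probe set of its own symbol. Alveolar genes were higher in 8 of 14 and lower in 0, led by Plet1 (5.23, all fat pads at the floor), the casein Csn3 (5.07, 2 at the floor), Wfdc18 (4.92) and lactoferrin, Ltf (3.90, 1 at the floor). The milk genes Csn2 and Wap were too dim to be tested.

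Of 18 tested genes of the prolactin, Jak2 and Stat5 pathway, 1 was higher in gland than in fat pad (Ccnd1, cyclin D1, 1.59 ± 0.22, limma adjusted p = 4.40e-05) and 1 lower (Cav1, a caveolar protein that restrains Jak2, -0.73 ± 0.17, adjusted p = 0.00747), with a median of 0.17. That share is close to the 10.4% called among all genes. Binding partners of the regulators were higher for 5 of 17 and lower for 0, with Tfap2c (4.60 ± 0.30), Runx1 (2.26 ± 0.32), Tfap2a (1.45 ± 0.32) and Nfib (0.79 ± 0.15) the first by adjusted p. Family relatives were higher for 4 of 21, namely Cited4 (1.94), Id4 (1.74), Etv5 (1.20) and Stat3 (0.50). The fifth, Id1, was lower (-1.01 ± 0.20, adjusted p = 0.00204), opposite in sign to Id2. Basal markers were higher for 4 of 8, adipocyte markers lower for 6 of 10 and skeletal muscle markers lower for 9 of 9. Lymphocyte markers changed in 0 of 12 and macrophage markers in 0 of 8. Fibroblast markers were higher for 1 of 8, and endothelial markers lower for 1 of 8.

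**Figure D4:**
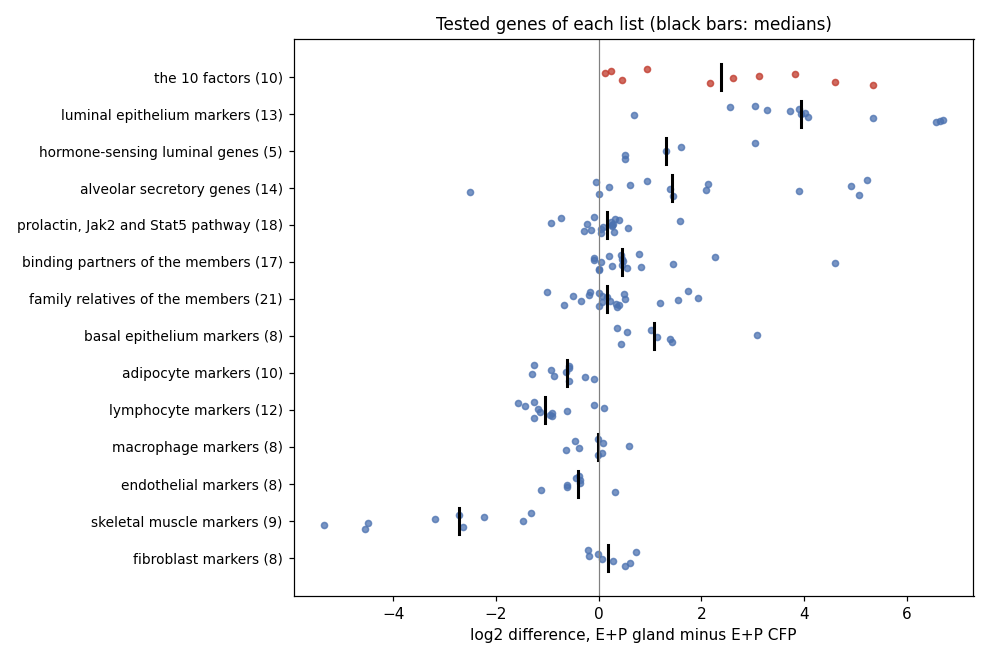
Log2 difference between E+P glands and E+P fat pads (x axis) of every tested gene of each list (y axis, number of tested genes in brackets), with a black bar at the median. The 10 regulators have a median of 2.39, between the luminal list at 3.94 and the prolactin, Jak2 and Stat5 pathway at 0.17, and skeletal muscle genes lie below 0.

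Between hormone treatments the same lists held few calls. At the threshold, E+P against V raised 0 of 13 luminal markers, 0 of 18 genes of the Stat5 pathway and 0 of 17 binding partners. Among all genes 0.662% were called, so these counts are near the background. The median log2 differences of these lists were 0.42, 0.027 and 0.13, with 12 of 13, 9 of 18 and 13 of 17 genes above 0. Among alveolar genes E+P against V raised Wfdc18, a secreted protein of the whey acidic family (2.72 ± 0.33, limma adjusted p = 0.000438). The same comparison lowered Ltf (-1.58 ± 0.24, limma adjusted p = 0.00429) and Btn1a1, a protein of the milk fat globule (-2.07 ± 0.43, adjusted p = 0.0314). Etv5, an Ets relative of Ehf and Elf5, was 1.39 ± 0.31 higher (adjusted p = 0.0412), with 1 V gland at the floor. Endothelial markers were lower for 2 of 8, Cdh5 (-0.96) and Cldn5 (-0.98). E+P against E raised Wfdc18 (2.08) and Kit, a receptor of luminal progenitors (1.05), and lowered Ltf (-1.46). E+P against P raised Wfdc18 (2.12), Cldn4 (1.57), Krt7 (1.12) and Kit (0.90).

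For each regulator, the 3 genes on the same array type whose log2 signal followed it most closely over the 17 intact glands were listed by Pearson correlation, as a description without a test. Gata3 and Elf5 shared Shroom3 (0.92 and 0.82) and Plet1 (0.84 and 0.79) among their closest. The third for Gata3 was Cmtm8 (0.82) and for Elf5 Nop2 (0.81). Elf3 was followed by Mzt2 (0.89), the tight-junction gene Cldn4 (0.82) and the mucin Muc1 (0.81). Ehf was followed by Muc15 (0.93), Trps1 (0.87) and 1110038B12Rik (0.87), and Lmo4 by Gab1 (0.93), Pald1 (0.86) and Nbl1 (0.84). The closest to Foxa1 were Eps8 (0.84), Eci2 (0.79) and Fam162a (0.79), and to Cited1 Lefty1 (0.80), Rora (0.76) and Csn3 (0.75). Id2 had Mrpl18 (0.85), Ipo5 (0.82) and Irf9 (0.81), and Stat5b had Igf2bp3 (0.79), Olfml1 (0.77) and Dync1li2 (0.75). For Stat5a they were Rprd1a, Ddb1 and Ip6k1, each at 0.83.

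Among the regulators themselves, the highest correlations over the 17 glands were 0.73 for Gata3 with Elf5, 0.72 for Lmo4 with Ehf and 0.69 for Ehf with Elf5, and the lowest was -0.60 for Cited1 with Ehf. Ehf and Stat5b were read on array B and the others on A, and values from different arrays were joined by replicate number. The correlation with the keratin mean was 0.64 for Gata3, 0.44 for Ehf, 0.42 for Elf3, 0.30 for Foxa1 and 0.18 for Lmo4, and it was -0.30 for Id2 and -0.38 for Stat5b. All these values share the hormone groups and each animal's mix of cells.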

How the data were processed

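Total RNA of 20 animals was read on 3 Affymetrix array types, 60 arrays. The deposited values are signal intensities on a linear scale. The submitters' processing notes name MAS5 for them, and its settings are not stated in the sources used here. As deposited, the arrays shared a trimmed mean of 150.03 to 150.10, and no pair of arrays was identical. The platform annotation gave 29131 probe sets 1 symbol, 724 several and 6846 none, and only the first were named. All 10 members were found in the RefSeq gene table.

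Each array was scaled to the common 2% trimmed mean of its type, floored at the type's 25th percentile (13.5 for A, 28.5 for B and 19.8 for C) and log2-transformed. Values below the floor have no order, so differences from such groups are estimates limited by the floor, and their size depends on where it is set. The number of arrays limits the precision. Probe sets above the 50th percentile in at least 3 animals were tested, 23055 of 36899, and they stand for 12233 genes. One fit per array type in limma 3.58.1 (R 4.3.3) held a mean for each of the 5 groups, with a variance trend. Benjamini-Hochberg adjustment ran over all tested probe sets, with a threshold of 0.05. The interaction is E+P minus E minus P plus V. The code was tested on simulated data. Signals are not comparable between probe sets.

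Each gene was counted by 1 probe set, chosen by array type (A first, C last), next by the lack of a suffix other than _at, and last by its mean signal. The text names every member with its probe sets, up to 4 called genes per list and comparison by adjusted p, a fixed set (Krt8, Krt18, Krt19, Esr1, Pgr, Prlr, Csn2, Wap, Wfdc18, Trp63, Krt14 and Mki67) and the 3 closest genes of each member; Etv5 among the fat pad relatives was chosen after its values were seen. Of the set, Krt14 was too dim to be tested, Trp63 was 1.43 higher in E+P glands than in fat pads, and Mki67 was 2.06 higher in E+P than in V. Members and lists were chosen with earlier results of these data known. Alternatives covered scaling, floor, filter, variance model, array weights, the groups fitted, the replicate number as a block, the probe set per gene, a scale relative to keratins, and leaving out animals.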

Additional observations from a re-analysis of the deposited data

Results flagged for a closer look

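Elf3 on array A in the P glands had 1 sample far from the others. P 2 read 85.7, or 6.42 on the log2 scale, whereas the next highest P gland was at 5.08, a gap of 0.859 of the group's range. It was the single such case in 60 groups of 4 or 5 animals examined, where chance alone marks about 1 in 20. Without P 2 the difference of E+P over P for Elf3 was 2.62 on the log2 scale, against 2.26 with it.

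The response of Elf3 to E differed between glands with and without P, by an interaction of 3.21 on the log2 scale in limma. The probe set on array C gave -0.20. Of the 10 genes it was the only one called in this comparison, and its other probe set was not called.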

How the results depend on the processing

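The 7 calls between gland and fat pad held under all 35 alternatives run for them, except that Elf3 was lost (0.054) when the brightest probe set stood for each gene; an eighth, Lmo4, was gained without V 4 or E 2. For E+P against V the 2 calls became 1 with median scaling, a floor at the 10th percentile, no variance trend, or V 4, E 1 and E+P CFP 1 left out together. They became 0 without the filter, in a fit on the compared groups only and with the replicate block, and 0 to 2 when animals were left out in turn. Relative to keratins there were 3, Ehf higher and Cited1 and Stat5a lower, where 41.2% of all genes were called. For E+P against E the count of 1 became 2 with a floor at the 40th percentile or array weights, 0 on the compared groups, with the replicate block or relative to keratins, and 1 to 2 without single animals. For E+P against P it was 0 with the brightest probe sets and 6 relative to keratins, where 55.4% of all genes were called. The interaction count was 0 without the filter, with the replicate block and with the brightest probe sets, and 0 to 1 without single animals. E against V had 9 calls relative to keratins, a scale on which 53.9% of all genes were called. Over the single genes and all settings, 72 values had another sign than the main one, 18 of them relative to keratins. Those called on either side were the Elf3 interaction with the brightest probe set (-0.20) and, relative to keratins, E against V in Gata3 (-0.74) and Elf5 (-0.77), E+P against V in Lmo4 (-0.035), and E+P against P in Stat5a (-0.63), Foxa1 (-0.61) and Stat5b (-0.75). Causes of these changes were not tested. The keratins were themselves higher by 0.77 in E than in V and by 0.76 in E+P than in P. The brightest probe set of Elf3 is the one on array C.

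On array A, deviations of same-numbered intact glands from their group means correlated at -0.33 to 0.20, above 0.1 in 8 of 24 pairs. Animals of different numbers were not compared, so these values cannot tell whether the replicate numbers pair the samples. With the replicate block the adjusted p was 0.0713 for Lmo4 and 0.114 for Ehf in E+P against V, 0.0503 for Lmo4 against E and 0.0668 for the Elf3 interaction, and 0.0446 for Elf3 against P. Dim probe sets, such as that of Ehf, measure differences less well than bright ones.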

Other observations

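The 3 probe sets of these genes that were too dim to be tested are given as values. The Ehf probe set on array A reached at most 38.6, in an E+P gland, and was at the floor in 1 of 5 E+P glands and in all P glands and fat pads. A second Ehf set on array B reached at most 53.9, also in an E+P gland, with 2 of 5 E+P glands and all fat pads at the floor. The Stat5b set on array A ranged from 7.3 to 61.5.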
